A study of Homo sapiens with 28 samples.

Results

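Cholesterol synthesis genes were followed in CHL-1, an established human melanoma line, after treatment with BAY1238097, an inhibitor of the BET proteins that bind acetylated histones and help start and elongate transcription. The set was given as 8 genes, namely HMGCS1, SQLE, INSIG1, IDI1, FDFT1, LSS, DHCR7 and TM7SF2. Each was represented by the probe set with its symbol and the highest mean, and 7 of the 8 had such a probe set among the 22357 genes named. FDFT1 was not analysed here. HMGCS1, SQLE, INSIG1, IDI1, LSS and DHCR7 had a log2 intensity above 5 on every array. TM7SF2 lay above 5 on 0 arrays at 4 h and 0 of the 4 DMSO arrays at 24 h, on 4 of 5 arrays at 75 nM and 24 h, and on 5 of 5 at 468 nM and 24 h. It therefore entered the tests through the groups in which it was high, so its p-values are given with no filter as well. The counts of genes below are over the other 6, unless TM7SF2 is said to be included.

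The 28 Affymetrix arrays formed 6 groups. Cells seeded a day earlier were given DMSO, the vehicle, for 4 h (4 arrays) or 24 h (4 arrays), or BAY1238097 at 75 nM or 468 nM for 4 h or 24 h (5 arrays each). The submitters named the lower dose as the IC50 and the higher as the IC90 in these cells. All groups are of 1 cell line, the label gives no genetic change, and the labels do not tell whether arrays of 1 group are of separate cultures, so every p-value is one for the spread among these arrays, which may be technical.

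Cells make cholesterol from acetyl-CoA through mevalonate, isoprenoid diphosphates, squalene and lanosterol. HMGCS1 makes HMG-CoA at the entry of the pathway, IDI1 interconverts the isoprenoid building blocks, FDFT1 and SQLE make squalene and its epoxide, and LSS closes the epoxide to lanosterol, the first sterol. TM7SF2 is a sterol reductase that acts on the ring of early sterols, an activity shared by LBR, and DHCR7 reduces the last double bond on one branch to cholesterol. INSIG1 is no enzyme: it holds the complex of SCAP and the SREBP transcription factors in the endoplasmic reticulum when sterols are plentiful. When sterols are scarce, SREBP is cut and its active fragment switches on most of these genes, usually with the factors NF-Y, which binds the CCAAT box, and SP1, which binds the GC box.

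The sequences before the start sites are shown because the genes are known for being regulated together through them. RefSeq promoter windows of GRCh38.p14 were held for 6 of the 8 genes, in 10 windows since 3 genes had several start sites, and none was held for SQLE or FDFT1. The letters were searched on both strands in the 250 bases before each start. CCAAT was present in 7 of 10 windows and in at least 1 window of 6 of 6 genes, against 32% of all 35116 windows of the table. The GC box letters GGGCGG were present in 9 of 10 windows, against 42.6% of all. The sterol element letters TCACNCCAC were present in 0 of 10 windows, against 0.883% of all. No CCAAT match shared bases with a GGGCGG match, but in IDI1 a CCAAT on each strand shared bases. A match is only a match of letters, and the absence of these letters says nothing of the factor.

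Read 5′ to 3′ on the strand of the gene, the last 200 bases before the start follow for INSIG1 (chr7:155297678-155297877, plus strand), LSS (chr21:46228775-46228974, minus strand), TM7SF2 (chr11:65111672-65111871, plus strand) and HMGCS1 (chr5:43313413-43313612, minus strand). The capitals mark CCAAT on either strand, so that ATTGG is the box on the opposite strand. These 4 were taken because the values below turn on them, and for HMGCS1 the window that held the box was taken.
INSIG1: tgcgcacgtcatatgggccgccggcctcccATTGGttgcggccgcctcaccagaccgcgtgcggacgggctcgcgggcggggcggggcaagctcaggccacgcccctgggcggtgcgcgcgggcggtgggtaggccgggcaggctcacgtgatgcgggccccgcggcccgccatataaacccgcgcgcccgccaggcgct
LSS: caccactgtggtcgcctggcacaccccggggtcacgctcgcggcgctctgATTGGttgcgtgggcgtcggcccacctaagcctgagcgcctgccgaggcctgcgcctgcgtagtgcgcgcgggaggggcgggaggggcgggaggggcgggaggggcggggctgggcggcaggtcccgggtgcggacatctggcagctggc
TM7SF2: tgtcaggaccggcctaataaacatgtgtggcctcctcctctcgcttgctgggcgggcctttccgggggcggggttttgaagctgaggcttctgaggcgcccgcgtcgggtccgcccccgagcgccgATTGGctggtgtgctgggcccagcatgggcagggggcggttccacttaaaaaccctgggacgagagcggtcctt
HMGCS1: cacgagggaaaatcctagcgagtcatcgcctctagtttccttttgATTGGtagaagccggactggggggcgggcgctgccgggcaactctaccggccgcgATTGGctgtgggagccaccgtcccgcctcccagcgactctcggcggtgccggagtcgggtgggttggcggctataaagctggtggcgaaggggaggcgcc
INSIG1, LSS and TM7SF2 each had 1 box in this stretch, whose first base lay 170, 150 and 74 bases before the start, and HMGCS1 had 2, at 155 and 100 bases.

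Over the whole series, 9285 genes were tested with limma, and those with an adjusted p below 0.05 are the genes called. Of markers of the melanocyte lineage, 2 of 7 with a probe set passed the filter, SOX10 and S100B, while MITF, PMEL, MLANA, TYR and TYRP1 lay below it. Of the markers of other cell types, 0 of 5 for keratinocytes, 0 of 4 for fibroblasts, 0 of 4 for endothelial cells and 1 of 4 for leukocytes (CD68) passed, counting those with a probe set. All values are relative to the distribution of their array. Shifting each array to hold 8 reference genes level moved the median log2 change over all genes to 0.323 at 468 nM and 24 h, to 0.242 for 468 nM against 75 nM at 24 h and to 0.222 for DMSO over time. The calls at 468 nM and 24 h then split into 3552 higher and 877 lower, in place of 1896 and 2335. Less RNA per cell and fewer cells of a kind cannot be told apart in such bulk samples. The titles of the arrays carry serial numbers that fall into 5 rounds of 26, and each round holds 1 array of each group, except that round 1 holds no DMSO array. The labels do not say what the number counts. Array values below are listed from round 1 to round 5 (DMSO from round 2). A trend over this order was not tested.

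TM7SF2, a sterol reductase, rose at 468 nM and 24 h, the largest change among the 7 genes. Its log2 intensity was 4.18, 4.37, 3.61 and 4.75 on the DMSO arrays at 24 h. At 75 nM it was 5.12, 5.22, 5.09, 4.75 and 5.08, and at 468 nM it was 5.98, 5.94, 6.32, 5.70 and 6.25. Every 468 nM array lay above every 75 nM array, and every 75 nM array lay above the highest DMSO array, although the closest pair both round to 4.75. From DMSO to 468 nM the mean moved from 4.23 ± 0.47 (SD, n = 4) to 6.04 ± 0.25 (SD, n = 5), a difference of 1.81 ± 0.22 (SE) on the log2 scale (limma adjusted p = 2.79e-07, where 45.6% of all tested genes were called). With all 22357 genes tested and no filter, the adjusted p was 2.15e-06. Within the rounds that hold both groups the difference was 1.50 to 2.09, positive in 4 of 4. The DMSO values lie between the filter value of 5 and the array medians of 2.44 to 2.49, so the difference is that of a dim probe set and no fold is given.

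At 75 nM and 24 h the TM7SF2 difference against DMSO was 0.82 ± 0.22 (95% interval 0.37 to 1.27), which missed the threshold (limma adjusted p = 0.0619, with 0.872% of all genes called). It was higher in 4 of 4 rounds, by 0.33 to 1.14. The call was made without the DMSO 24 h replicate 4, the highest DMSO array (adjusted p = 0.0323), and after a repeated quantile normalization (adjusted p = 0.0394). It was also made with a replicate block by round over both times. With a block by round within each time, chosen after seeing the data, the limma adjusted p was 0.0273, with 4.67% of all genes called. Between doses at 24 h, TM7SF2 was higher at 468 nM by 0.98 ± 0.21 (adjusted p = 0.000668, with 30.8% of all genes called). With no filter these p-values were 0.178 for 75 nM against DMSO and 0.00298 between doses.

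**Figure D1:**
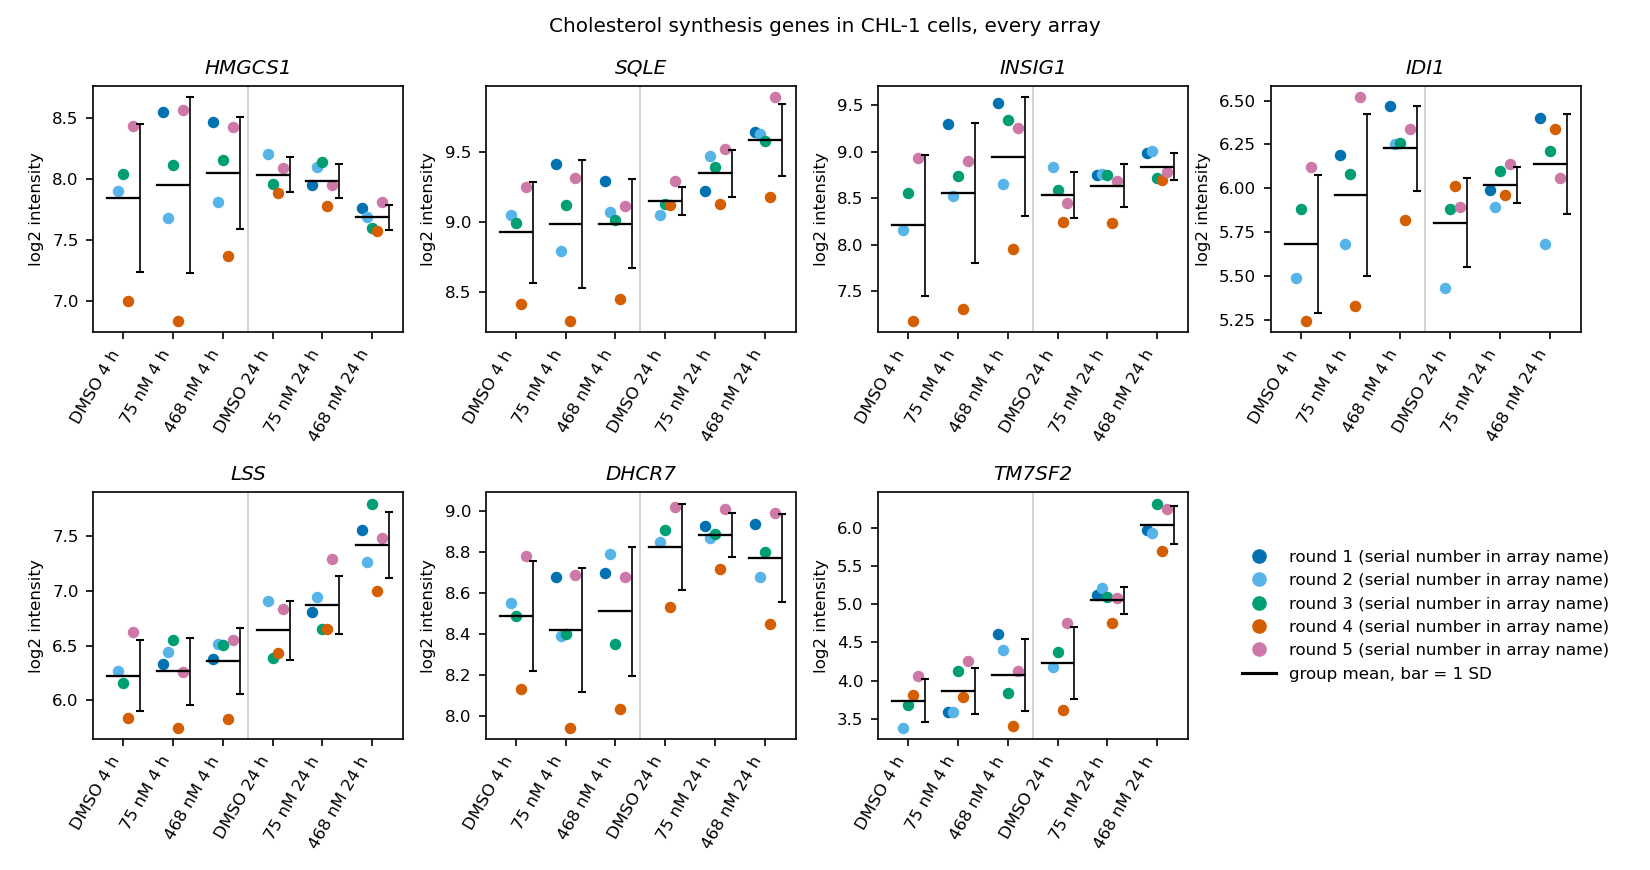
Log2 intensity (vertical axis) of the 7 genes with a probe set on each of the 28 arrays, by dose and time, with the group mean as a black line, a bar of 1 SD and colours for the round of the serial number in the array name. TM7SF2 steps up at 24 h from a mean of 4.23 in DMSO to 5.05 at 75 nM and 6.04 at 468 nM, and the round 4 arrays are the lowest of the 4 h groups for every gene but TM7SF2.

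At 4 h TM7SF2 lay below the filter value in every group. Its values at 4 h were 3.38, 3.68, 3.81 and 4.06 in DMSO, 3.59, 3.59, 4.12, 3.78 and 4.25 at 75 nM, and 4.61, 4.40, 3.83, 3.40 and 4.13 at 468 nM. These 3 groups and the DMSO arrays at 24 h overlapped. In the order of the group means, DMSO at 4 h (3.73), 75 nM at 4 h (3.87), 468 nM at 4 h (4.07) and DMSO at 24 h (4.23) were neighbours whose arrays overlapped, and only the treated groups at 24 h stood above them. The effect of 468 nM was larger at 24 h than at 4 h by 1.47 ± 0.31 (limma adjusted p = 0.00114 for the interaction, with 23.5% of all genes called, and 0.00514 with no filter). Of the 4 groups in this comparison, all but 468 nM at 24 h lay below the filter value. For 75 nM the same difference was 0.69 ± 0.31 (adjusted p = 0.677, with 0.0323% of all genes called).

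LSS, the lanosterol synthase, rose at 468 nM and 24 h. It stood at 6.91, 6.39, 6.43 and 6.84 in DMSO, at 6.81, 6.95, 6.65, 6.65 and 7.29 at 75 nM, and at 7.56, 7.27, 7.80, 7.0 and 7.49 at 468 nM. No 468 nM array overlapped with DMSO, while the 75 nM arrays overlapped with both. The mean moved from 6.64 ± 0.27 (SD, n = 4) to 7.43 ± 0.30 (SD, n = 5), a rise of 0.78 ± 0.19 or 1.72-fold (limma adjusted p = 0.00162). The difference was positive in 4 of 4 rounds, from 0.36 to 1.41.

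Between doses at 24 h LSS was higher at 468 nM by 0.55 ± 0.18 (limma adjusted p = 0.0204). That call was lost without 75 nM replicate 3 (adjusted p = 0.0547), 75 nM replicate 4 (0.0554) or 468 nM replicate 3 (0.0681), and with no filter on dim genes (0.063). At 75 nM LSS differed from DMSO by 0.23 ± 0.19 (adjusted p = 0.596). At 4 h its group means were 6.23 in DMSO, 6.27 at 75 nM and 6.36 at 468 nM, with overlapping arrays, and the difference at 468 nM was 0.13 ± 0.19 (adjusted p = 0.771). The effect of 468 nM was 0.65 ± 0.27 larger at 24 h than at 4 h, which missed the threshold (adjusted p = 0.0822). That difference was called without DMSO 4 h replicate 3 (adjusted p = 0.0438) or 468 nM 24 h replicate 4 (0.0392), and without all arrays of round 4 (0.0374). With the replicate block by round within each time it was 0.65 ± 0.20 (limma adjusted p = 0.0196, with 30.2% of all genes called). Of 10 alternatives other than leaving out a single array, 4 called it, and the adjusted p ran from 0.0135 to 0.204.

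Of the 6 genes measured on every array, LSS was the 1 called at 468 nM and 24 h in the fit without a block. That is 1 of 6 higher and 0 lower, where 20.4% of all genes were called higher and 25.1% lower. A replicate block by round within each time was chosen after seeing the data. With it SQLE (limma adjusted p = 0.000794), INSIG1 (0.0249) and IDI1 (0.0292) were also called higher and HMGCS1 (0.00515) lower. There 23.5% of all genes were called higher and 27.5% lower. Within rounds SQLE was higher at 468 nM by 0.06 to 0.60, INSIG1 by 0.13 to 0.45 and IDI1 by 0.17 to 0.34, each in 4 of 4. The median difference of the 6 was 0.33, and that of all tested genes was -0.02. The 6 were chosen with earlier results of these data known, so this and their medians given below are descriptions and no test. The 11 other tested enzymes of the mevalonate and sterol steps had a median of -0.32. SQLE, the squalene epoxidase, had values of 9.05 to 9.29 in DMSO and 9.18 to 9.89 at 468 nM, and its lowest 468 nM array was the only one inside the DMSO range. Its difference was 0.44 ± 0.20 (limma adjusted p = 0.0698). Without 468 nM replicate 4 it was 0.54 (adjusted p = 0.0304), and without all arrays of round 4 it was 0.53 (adjusted p = 0.00321). IDI1 stood at 5.43 to 6.01 in DMSO and 5.68 to 6.40 at 468 nM, with a difference of 0.34 ± 0.20 (adjusted p = 0.173). INSIG1 stood at 8.25 to 8.84 and 8.70 to 9.01, with a difference of 0.31 ± 0.33 (adjusted p = 0.468), which was 0.65 after the reference shift (adjusted p = 0.145). DHCR7, at 8.53 to 9.02 and 8.45 to 8.99, had a difference of -0.06 ± 0.16 (adjusted p = 0.803; 95% interval -0.39 to 0.28), which became 0.29 once arrays were shifted by the reference genes.

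HMGCS1, at the entry of the pathway, had its mean on the other side. At 24 h it stood at 8.21, 7.96, 7.89 and 8.09 in DMSO and at 7.76, 7.69, 7.60, 7.57 and 7.81 at 468 nM. Every 468 nM array lay below every DMSO array, and the difference was negative in 4 of 4 rounds, from -0.52 to -0.28. The fitted difference of -0.35 ± 0.28 did not pass the test (limma adjusted p = 0.311). The SE comes from all 28 arrays, and the SD of HMGCS1 within groups was 0.61 at 4 h and 0.13 at 24 h. Fitted on the arrays of these groups alone, HMGCS1 (adjusted p = 0.036) and SQLE (adjusted p = 0.0365) passed with unchanged differences. After the shift by the reference genes HMGCS1 stood at -0.0084 (adjusted p = 0.984), beside a median of 0.323 for all genes, while SQLE at 0.78 (adjusted p = 0.0142) and IDI1 at 0.68 (adjusted p = 0.0146) passed.

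At 75 nM and 24 h, 0 of the 6 genes passed limma's test, where 0.872% of all genes did, and 0 had an unadjusted p below 0.05, where 15.9% of all genes did. Their differences ran from -0.06 for HMGCS1 to 0.23 for LSS, with a median of 0.15 beside -0.02 for all genes. The widest of the 95% intervals was that of INSIG1, from -0.58 to 0.78, which leaves room for a difference of that size. Its width uses a spread pooled over both times, and the SD of INSIG1 within groups was 0.71 at 4 h and 0.21 at 24 h. With the block within each time the interval was -0.13 to 0.27.

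**Figure D2:**
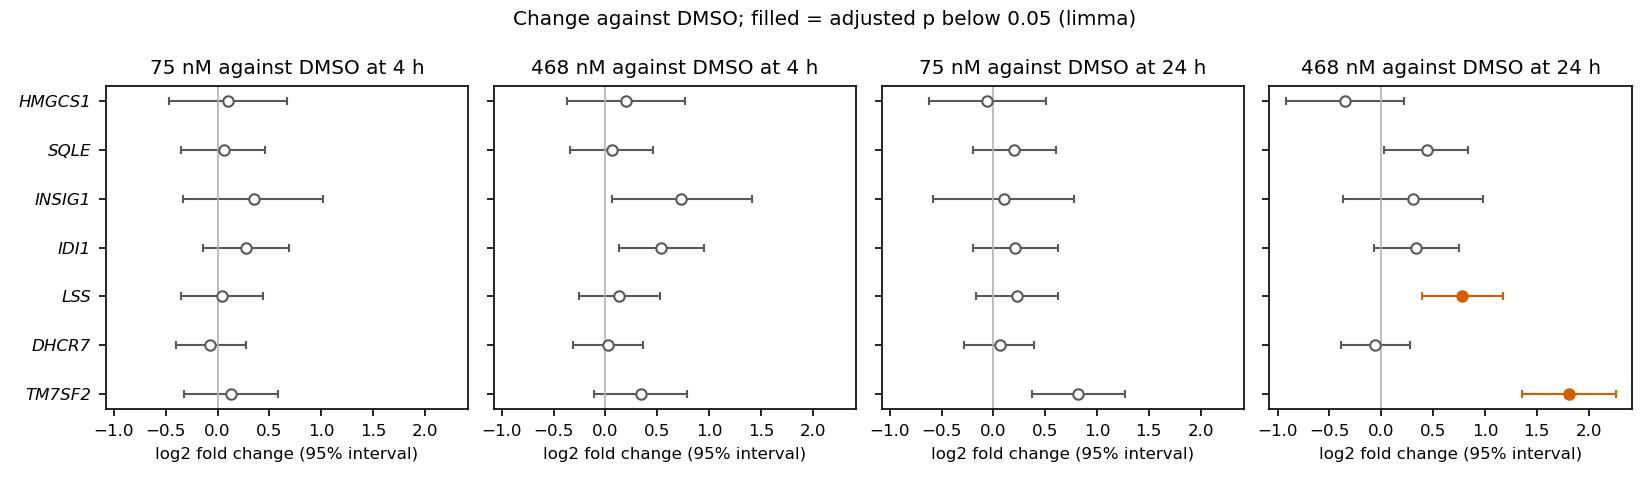
Log2 fold change against DMSO (horizontal axis) with its 95% interval for the 7 genes at each dose and time, filled where the limma adjusted p is below 0.05. The fit shown has no replicate block. The filled points are LSS (0.78) and TM7SF2 (1.81) at 468 nM and 24 h. The intervals of INSIG1 and IDI1 at 468 nM and 4 h lie above 0 without passing the adjusted threshold in this fit. With a block by round within each time, chosen after seeing the data, INSIG1 (limma adjusted p = 0.000503) and IDI1 (0.0063) passed there. The intervals use a spread pooled over both times, and for INSIG1 and IDI1 the SD within groups was larger at 4 h than at 24 h.

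At 4 h the highest differences were those of INSIG1 and IDI1 at 468 nM. INSIG1, the sterol-dependent anchor of SREBP, stood at 8.16, 8.56, 7.18 and 8.93 in DMSO, at 9.30, 8.52, 8.74, 7.31 and 8.90 at 75 nM, and at 9.52, 8.65, 9.34, 7.96 and 9.25 at 468 nM. The groups overlapped widely, and in each the lowest value was that of round 4. From DMSO to 468 nM the difference was 0.73 ± 0.33 (limma, unadjusted p = 0.0348 and adjusted p = 0.178). The SE comes from arrays of both times, and the SD of INSIG1 within groups was 0.71 at 4 h and 0.21 at 24 h. The fit thus takes a smaller spread than that of the 4 h arrays. The same holds for IDI1 below, with an SD of 0.38 at 4 h and 0.23 at 24 h. Arrays of the same round were nearer to each other, and within rounds INSIG1 was higher at 468 nM in 4 of 4, by 0.32 to 0.78. With the round as a replicate block within each time, an alternative chosen after seeing the data, INSIG1 rose by 0.57 ± 0.10 (adjusted p = 0.000503).

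IDI1, the isomerase, stood at 5.49, 5.88, 5.24 and 6.12 in DMSO and at 6.47, 6.25, 6.26, 5.82 and 6.34 at 468 nM and 4 h. The groups overlapped. The difference was 0.54 ± 0.20 (limma, unadjusted p = 0.0117 and adjusted p = 0.0861), and within rounds it was positive in 4 of 4, from 0.22 to 0.76. With the block within each time it was 0.48 ± 0.11 (adjusted p = 0.0063). The call was also made without 468 nM replicate 4 (adjusted p = 0.0455) or DMSO replicate 4 (adjusted p = 0.0368). With 1 block over both times IDI1 had an adjusted p of 0.0501 and INSIG1 of 0.0666, and without the arrays of round 4 these were 0.124 and 0.0552. Over all alternatives that kept single arrays in, the limma adjusted p ran from 0.0063 to 0.254 for IDI1 and from 0.000503 to 0.373 for INSIG1. Leaving out each array gave 0.0368 to 0.299 for IDI1, with differences of 0.40 to 0.69. For INSIG1 it gave 0.0512 to 0.576, with differences of 0.39 to 0.98.

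The other 4 genes on every array did not pass the test between DMSO and 468 nM at 4 h. HMGCS1 differed by 0.20 ± 0.28, LSS by 0.13 ± 0.19, SQLE by 0.06 ± 0.20 and DHCR7 by 0.02 ± 0.16 (limma adjusted p = 0.756, 0.771, 0.912 and 0.962). In all, 0 of the 6 passed without the block and 2 with it, where 10.9% of all tested genes were called without it and 14.4% with it. At an unadjusted p below 0.05 there were 2, INSIG1 and IDI1, where 22.3% of all genes had one. The median of the 6 was 0.17 beside -0.03 for all genes. At 75 nM and 4 h the 6 differences ran from -0.07 for DHCR7 to 0.35 ± 0.33 for INSIG1, 0 passed and 0 had an unadjusted p below 0.05, where 0.679% and 8.72% of all genes did.

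The round 4 arrays stood apart for these genes at 4 h. For 6 of the 7 genes, all but TM7SF2, the round 4 array was the lowest of its group in DMSO, at 75 nM and at 468 nM alike, and this held for 4.91% of all tested genes (456 of 9285). HMGCS1 stood at 7.0, 6.83 and 7.37 on the round 4 arrays in DMSO, 75 nM and 468 nM. The next lowest arrays of those groups were at 7.90, 7.68 and 7.81. For INSIG1 the gap to the next lowest array was 0.98, 1.20 and 0.69 on the log2 scale, and for SQLE it was 0.58, 0.51 and 0.56. These gaps exceed the fitted differences between 468 nM and DMSO at 4 h for HMGCS1 and SQLE. At 24 h the round 4 array was lowest in all 3 treatments for HMGCS1, INSIG1, DHCR7 and TM7SF2, against 5.72% of all genes.

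The spread of the set was larger at 4 h. The SD within groups was 0.71 for INSIG1 at 4 h and 0.21 at 24 h, and 0.61 and 0.13 for HMGCS1, while the median SD of all genes was 0.20 at 4 h and 0.24 at 24 h. Among all tested genes INSIG1 lay at percentile 98.7 and HMGCS1 at percentile 97.6 of this SD at 4 h, and at 38.8 and 8.2 at 24 h. For SQLE it was 0.38 and 0.19, for IDI1 0.38 and 0.23, for DHCR7 0.30 and 0.18, and for LSS 0.31 and 0.28. Of 11 other tested sterol enzymes, 5 had the round 4 array lowest in all 3 treatments at 4 h, and they are named although they were picked by these values: MVD, MSMO1, NSDHL, SC5D and ERG28. What set round 4 apart was not tested.

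**Figure D3:**
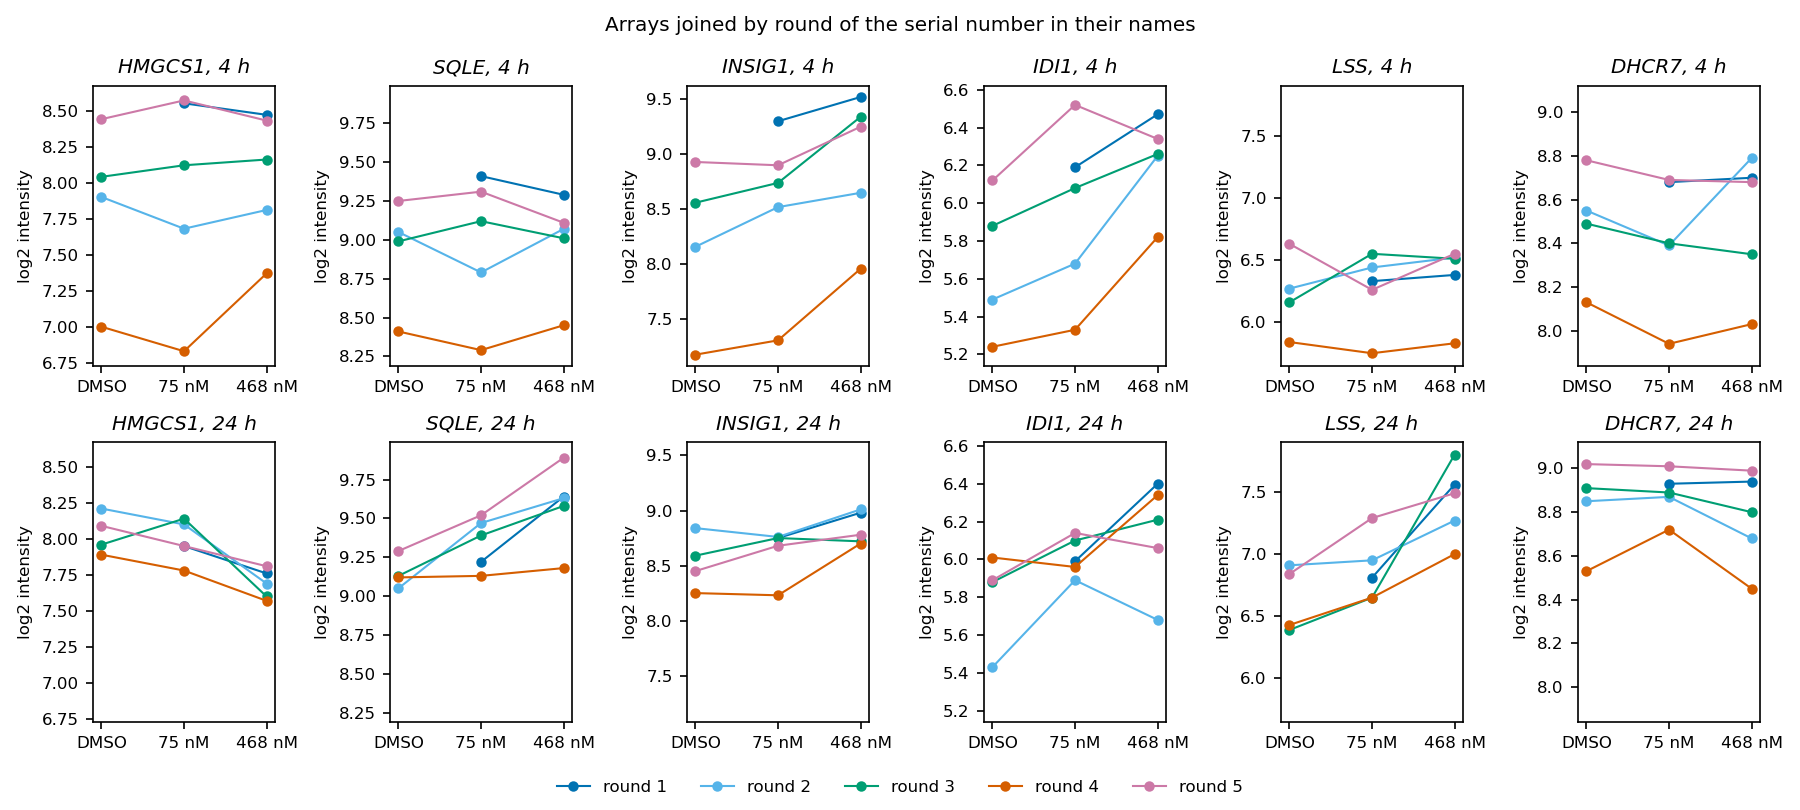
Log2 intensity (vertical axis) of 6 genes in DMSO, 75 nM and 468 nM, at 4 h in the upper row and 24 h in the lower row, with arrays of the same round joined by a line. At 4 h the round 4 line lies below the others in all 6 genes, and the INSIG1 and IDI1 lines end higher at 468 nM than in DMSO in 4 of 4 rounds.

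Over the 28 arrays each gene was set against the mean of the other members, standardised. Pearson's r was 0.92 for SQLE, 0.78 for DHCR7, 0.76 for INSIG1, 0.71 for LSS, 0.63 for IDI1, 0.57 for TM7SF2 and 0.52 for HMGCS1. These values are a description, since the arrays share their normalization, the round and the treatment. In DMSO, 0 of the 6 genes were called between 24 h and 4 h, where 5.23% of all genes were. LSS was 0.42 ± 0.20 higher at 24 h (limma adjusted p = 0.212), TM7SF2 0.49 ± 0.23 (adjusted p = 0.198) and DHCR7 0.34 ± 0.17 (adjusted p = 0.239). LSS was the 1 of the 6 with an unadjusted p below 0.05, where 23% of all genes had one, and TM7SF2 had one too. Between doses at 4 h, 0 of the 6 were called, where 2.56% of all genes were, and 0 had an unadjusted p below 0.05, where 11.3% of all genes had one. With the block within each time the difference of INSIG1 between the doses was 0.39 ± 0.09, higher at 468 nM (adjusted p = 0.0164).

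The other genes of the pathway were taken from lists of 56 genes, of which 44 had a probe set and 39 were tested. At 468 nM and 24 h, 5 of the 39 rose and 12 fell, that is 43.6% against 45.6% of all genes. Of the 11 other enzymes of the mevalonate and sterol steps, 0 rose and 5 fell, with a median of -0.32. Thus 45.5% were called, near the 45.6% of all genes, of which 20.4% rose and 25.1% fell. The 5 were ACAT2, which makes acetoacetyl-CoA (-0.70 ± 0.19, limma adjusted p = 0.00483), the mevalonate kinase MVK (-0.48 ± 0.16, 0.0153), the phosphomevalonate kinase PMVK (-0.38 ± 0.15, 0.0439), FDPS, which makes farnesyl diphosphate (-0.62 ± 0.20, 0.0117), and the sterol isomerase EBP (-0.67 ± 0.18, 0.00285). These directions are relative to each array's distribution. After the shift by the reference genes 15 of the 39 rose and 2 fell, where 38.3% of all genes rose and 9.45% fell, and of the 11 enzymes 2 rose (ERG28 and SC5D) and 0 fell, with a median of 0.02. ACAT2 (-0.35), MVK (-0.14), PMVK (-0.0407), FDPS (-0.28) and EBP (-0.33) stayed below 0 and no longer passed. LBR, with the same reductase activity as TM7SF2, stood at -0.22 ± 0.09 (adjusted p = 0.0546), and at 0.12 after the shift. Fitted on the arrays of both groups alone, MVK (adjusted p = 0.0683), PMVK (0.161) and FDPS (0.0589) did not pass, and PMVK did not with no filter (0.114) or repeated quantile normalization (0.0601). The call of PMVK was lost without any 1 DMSO array or 468 nM replicate 2 or 3 (adjusted p = 0.0572 to 0.17), and that of MVK without 468 nM replicate 2 (0.0593). LBR was called without 468 nM replicate 2 (0.043) or 5 (0.0428) or DMSO replicate 4 (0.0281).

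**Figure D4:**
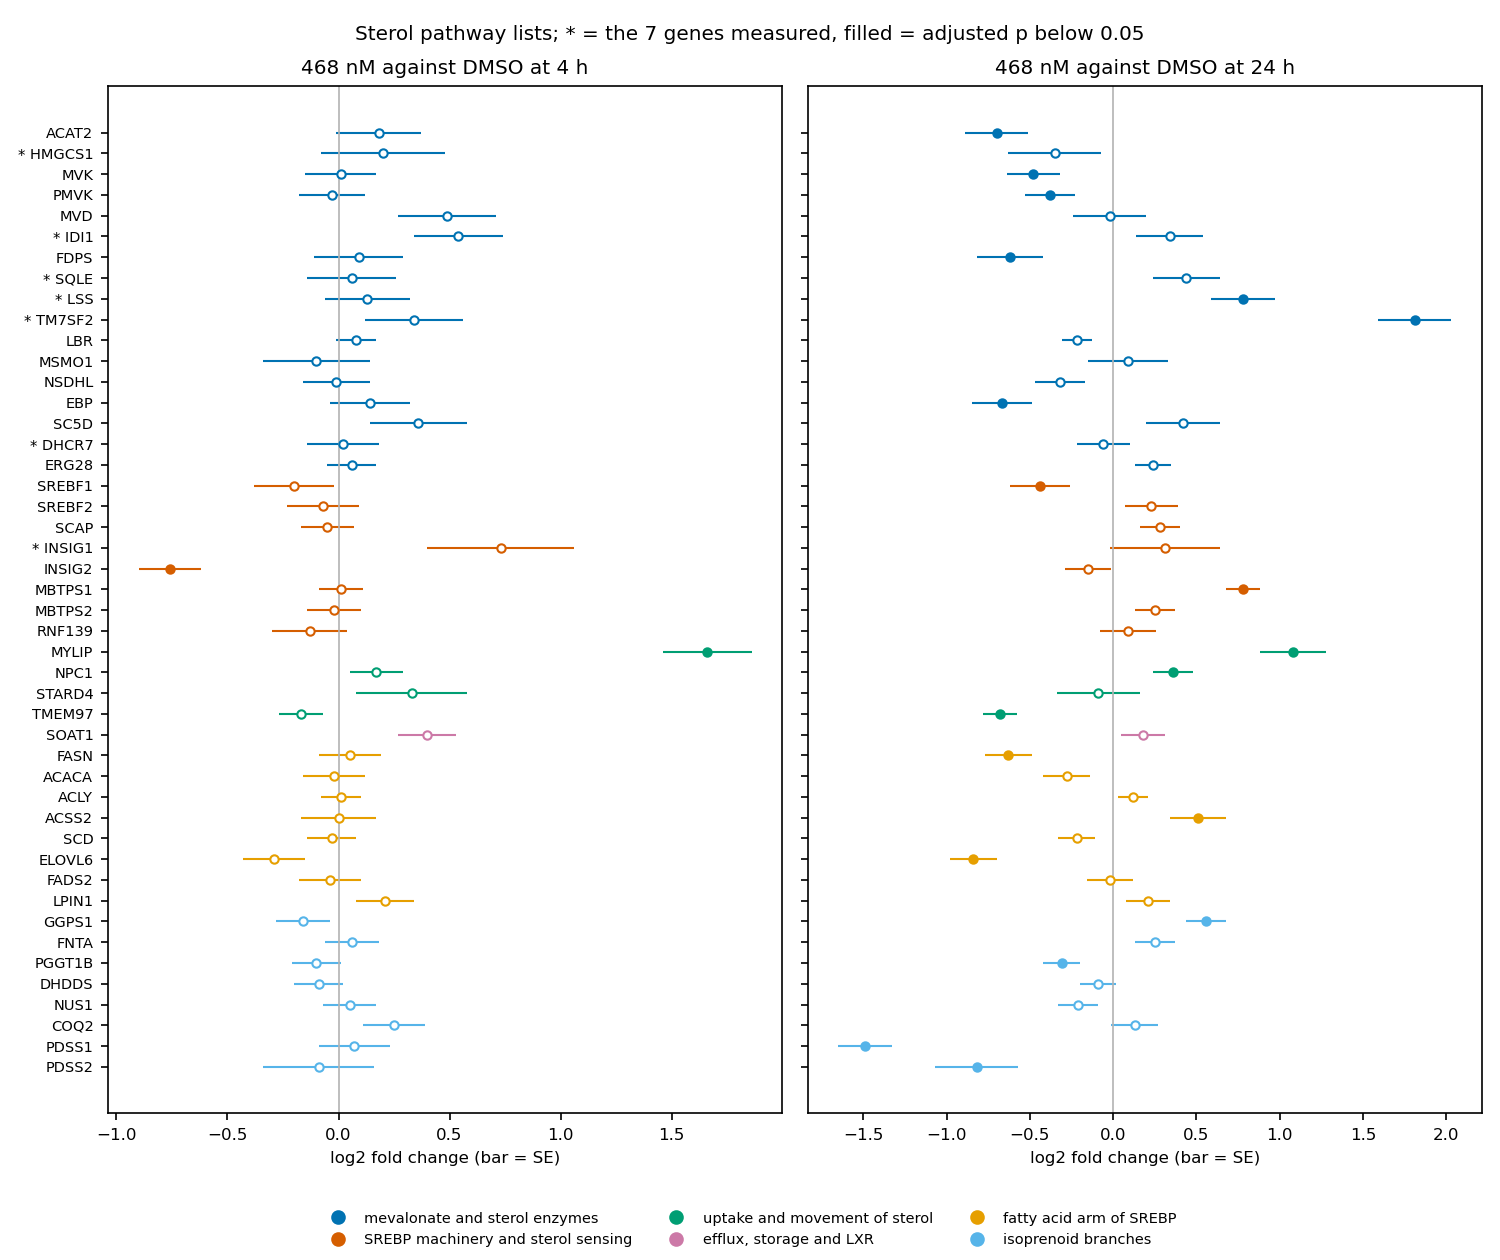
Log2 fold change at 468 nM against DMSO (horizontal axis) with 1 SE for 46 tested genes of the sterol pathway lists, at 4 h on the left and 24 h on the right, coloured by list and filled where the limma adjusted p is below 0.05. At 4 h the filled points are INSIG2 (-0.76) and MYLIP (1.66), and at 24 h 7 points are filled on the right of 0 and 12 on the left, a split that turns after the shift by the reference genes, to 15 higher and 2 lower of the 39 genes outside the set.

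Among the regulators, SREBF1, which encodes SREBP forms that favour fatty acid synthesis, fell at 468 nM and 24 h by 0.44 on the log2 scale (SE 0.18, limma adjusted p = 0.0405). That call was lost on leaving out replicate 1, 4 or 5 at 468 nM, or replicate 1, 2 or 4 in DMSO (adjusted p = 0.0503 to 0.18), with only the groups compared (0.144), with no filter (0.104), with repeated quantile normalization (0.0696) and after the reference shift (-0.10). SREBF2, the form that favours cholesterol synthesis, stood at 0.23 ± 0.16 (adjusted p = 0.241), and at 0.58 after the shift (adjusted p = 0.0352). MBTPS1, the first protease that cuts SREBP, rose by 0.78 ± 0.10 (adjusted p = 1.19e-06) without overlap of arrays, from 7.80 ± 0.10 (SD, n = 4) to 8.58 ± 0.14 (SD, n = 5). INSIG2, the second INSIG protein, fell at 468 nM and 4 h. It stood at 7.32 ± 0.17 (SD, n = 4) in DMSO and 6.56 ± 0.18 (SD, n = 5) at 468 nM, and the difference was -0.76 ± 0.14 (adjusted p = 0.000607). At 24 h INSIG2 stood at -0.15 ± 0.14 (adjusted p = 0.421) and at 0.19 after the shift, and the difference between the times was 0.61 ± 0.20 (adjusted p = 0.0302).

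MYLIP, a ubiquitin ligase that limits sterol uptake, was higher at 468 nM at both times. Its highest array was 4.97 in DMSO at each time and 4.94 at 75 nM and 24 h, so it passed the filter through the groups in which it was high. At 4 h it stood at 4.67 ± 0.39 (SD, n = 4) in DMSO, 5.48 ± 0.15 (SD, n = 5) at 75 nM and 6.33 ± 0.10 (SD, n = 5) at 468 nM, without overlap between any of these groups. The difference at 468 nM was 1.66 ± 0.20 (limma adjusted p = 1.37e-06, and 1.03e-05 with no filter) at 4 h and 1.08 ± 0.20 (adjusted p = 7.62e-05, and 0.000386 with no filter) at 24 h. At 75 nM and 4 h the difference was 0.81 ± 0.20 (adjusted p = 0.0525). NPC1, which moves cholesterol out of lysosomes, rose at 468 nM and 24 h by 0.36 ± 0.12 (adjusted p = 0.0173), and TMEM97, which binds NPC1, had a change of -0.68 ± 0.10 (adjusted p = 3.4e-06), which was -0.34 after the shift (adjusted p = 0.0697). The call of NPC1 was lost without 468 nM replicate 2 (0.0636) or DMSO replicate 2 (0.0557) or 4 (0.0786), with no filter (0.0581) and with only the groups compared (0.107). INSIG2 and MYLIP were the 2 of the 39 genes called at 468 nM and 4 h, 5.13% against 10.9% of all genes. In the fit without a block, 0 of 39 were called by limma at either time at 75 nM (0.679% and 0.872% of all genes). A blocked fit at 75 nM was not examined for these genes. At an unadjusted p below 0.05, 2 were higher and 2 lower at 75 nM and 4 h, where 8.72% of all genes had one, and 2 were higher and 6 lower at 75 nM and 24 h, where 15.9% had one. With the replicate block within each time, MVD, the mevalonate diphosphate decarboxylase, and SOAT1, which makes cholesteryl esters, also passed as higher at 468 nM and 4 h, which makes 3 higher and 1 lower, where 14.4% of all genes were called.

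In the fatty acid arm of the SREBP targets 1 of 8 rose and 2 fell at 468 nM and 24 h, 37.5% against 45.6% of all genes. These were ACSS2, which makes acetyl-CoA from acetate (0.51 ± 0.17, limma adjusted p = 0.0144), the fatty acid synthase FASN (-0.63 ± 0.14, 0.000822) and the elongase ELOVL6 (-0.84 ± 0.14, 1.9e-05). ACSS2 was no longer called without DMSO replicate 3 (0.107), with only the groups compared (0.0636) or without all arrays of round 4 (0.0822), and FASN was not called after the reference shift (-0.29). In the branches that lead from farnesyl diphosphate to ubiquinone, dolichol and prenylated proteins, 1 of 8 rose and 3 fell, 50% against the same 45.6%. GGPS1, which makes geranylgeranyl diphosphate, rose by 0.56 ± 0.12 (adjusted p = 0.000419). PDSS1 and PDSS2, the subunits that make the ubiquinone side chain, had changes of -1.49 ± 0.16 (adjusted p = 2.91e-08) and -0.82 ± 0.25 (0.00812), and PGGT1B, a subunit of a prenyltransferase, of -0.31 ± 0.11 (0.0202). After the shift PDSS2 stood at -0.48 (adjusted p = 0.189) and PGGT1B at 0.037 (adjusted p = 0.881), and PGGT1B was also lost without DMSO replicate 1 (0.0615) or 2 (0.0763), 468 nM replicate 5 (0.0509), or round 4 (0.0747), with no filter (0.0711) and with only the groups compared (0.0834). PDSS1 was the one with the largest fall of all these lists, from 5.92 ± 0.14 (SD, n = 4) to 4.43 ± 0.41 (SD, n = 5). At 468 nM the means of PDSS1 and of PDSS2 (4.81) lay below the filter value of 5, so these are falls of dim probe sets. Both were also called lower with no filter.

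Outside these lists, the 5 genes of 9239 whose values over the 28 arrays were most like the mean of the standardised members were ERO1B (Pearson's r = 0.91), P4HA1 (0.88), PDGFRL (0.84), SH3BGRL (0.84) and COTL1 (0.84). For each of the 5 the round 4 array was the lowest in DMSO, 75 nM and 468 nM at 4 h, where 4.91% of all genes had this. It follows in part from the choice, since 6 of the 7 members had it and the 5 were picked for likeness to them. ERO1B, an oxidase of the endoplasmic reticulum, had group means of 4.92, 5.09 and 5.61 at 4 h and 5.66, 5.74 and 5.97 at 24 h in DMSO, 75 nM and 468 nM. P4HA1, a collagen prolyl hydroxylase subunit, had 8.86, 9.04 and 9.08, then 9.29, 9.33 and 9.71. The likeness is over arrays that share rounds and treatments and was given no test.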

How the data were processed

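Total RNA of CHL-1 cells was measured on 28 Affymetrix arrays. The authors deposited linear intensity values for 53617 probe sets with 0 missing values, summarised by RMA per the submitters' processing notes. RMA subtracts background, equalises the distributions of arrays and combines probes. Its version is not given in the sources used here, nor is the genome build of the probe sets. Median log2 intensities were 2.44 to 2.49 on every array, so a change common to most genes stays unseen. Arrays have no sequencing depth, and their number limits the precision.

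Intensities were transformed to log2. Probe sets were named from the platform's annotation, where 23871 had 1 symbol, 1842 several and 27904 none listed, with symbols updated through RefSeq (GRCh38.p14). Each gene took the probe set with its highest mean. Genes above 5 on at least 4 arrays were tested, 9285 in all. limma 3.58.1 (R 4.3.3; tables with Python 3.11.15) was fitted to 6 group means over all arrays (degrees of freedom 22 residual, 3.84 prior), and p-values were adjusted by Benjamini-Hochberg within each of 9 comparisons. Calls have an adjusted p below 0.05. The code was tested on simulated data. Folds are 2 to the power of the log2 difference. Replicate numbers follow the order of listing.

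The members and lists were chosen with earlier results of these data known. Named genes were all members, list genes called at 468 nM at 4 h or 24 h, SREBF1, SREBF2, INSIG2 and LBR in any case, and the 5 genes most correlated with the members' mean; other genes of the rule are not reported here. MVD, MSMO1, NSDHL, SC5D, ERG28 and SOAT1 lie outside the rule and were named after their values were seen.

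Pairing was checked by correlating deviations from group means over all tested genes between arrays of the same round of serial numbers. At 4 h every such pair had a correlation over 0.1 (lowest 0.103, means 0.22 to 0.26). The rounds were therefore taken as pairing the arrays there, and the blocked value is given for the results of the set that it changes. At 24 h the means were 0.15 to 0.17, beside -0.04 for arrays of other rounds, but the lowest pair was at 0.015. Between the times the lowest was -0.127. Since not every pair was over 0.1, the rounds were not taken as pairing in either case. The blocked calls at 24 h are given as an alternative. Alternatives were no filter, a filter at 7, only the groups compared, repeated quantile normalization, a shift by 8 reference genes, replicate blocks, the mean of all probe sets, a variance trend with a robust fit, and leaving out each array. The block within each time and the fit without round 4 were added after seeing the data.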

Additional observations from a re-analysis of the deposited data

Results flagged for a closer look

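Of 42 groups of values (7 genes in 6 groups) examined for an array far from the others, 2 had one, and chance gives about 1 in 20. INSIG1 at 75 nM and 24 h had its lowest array, replicate 4, at 8.23, with the nearest at 8.68, a gap of 0.84 of the range of the group. LSS at 468 nM and 4 h had its lowest array, replicate 4, at 5.83, with the nearest at 6.38, a gap of 0.77 of the range. Both arrays are of round 4. The effect of 468 nM on TM7SF2 was larger at 24 h than at 4 h by 1.47 ± 0.31 (limma adjusted p = 0.00114, and 0.00514 with no filter on dim genes; 468 nM at 24 h was the only one of the 4 groups above the filter value), and the difference in the same direction was 1.26 to 1.64 when each array was left out in turn.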

How the results depend on the processing

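TM7SF2 and LSS kept their rise at 468 nM and 24 h in every alternative that tested them (TM7SF2 is not tested with a filter at 7): LSS ranged from 0.69 to 1.12 and TM7SF2 from 1.60 to 2.15. Of 615 values under alternatives other than leaving out an array, 543 kept direction and side of the threshold, and of 614 that left out an array, 559 did. Where counts of called genes of the set moved, the cause was not tested unless fewer genes or arrays were used.

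The counts that follow include TM7SF2, which entered the tests through the groups in which it was high. They describe how calls move and are no test of the set. Without TM7SF2 the main fit called 1 of 6 genes at 468 nM and 24 h and 1 between doses at 24 h. It called 0 at 75 nM and 24 h and 0 for the difference of the 468 nM effect between times. Percentages in brackets are the shares of all tested genes called in the same comparison and setting. For 468 nM at 24 h, 2 genes were called, 1 with a filter at 7, 4 with only the groups compared, 4 after the reference shift, 6 with the replicate block within each time (all but DHCR7, with HMGCS1 at -0.36) and 2 to 3 leaving out each array. The plain replicate block gave 3 (48.5%), with SQLE. For 468 nM at 4 h the count of 0 (10.9%) became 2 with the block within each time (14.4%) and 0 to 1 leaving out each array. For 75 nM at 24 h the count of 0 (0.872%) became 1, TM7SF2, with repeated quantile normalization (1.28%), the plain replicate block (2.52%) or the block within each time (4.67%). Leaving out each array gave 0 to 1. Between doses at 4 h the count of 0 (2.56%) became 1 with the block within each time (4.08%). Between doses at 24 h the count of 2 (30.8%) was 1 with no filter (10%) or a filter at 7 (39.6%). It was 4 with the block within each time (38.3%) and 1 to 2 leaving out each array. In DMSO over time the count of 0 (5.23%) became 1 with the replicate block (9.78%), which was DHCR7 (limma adjusted p = 0.0227). For the difference of the 468 nM effect between times the count of 1 (23.5%) was 0 with a filter at 7 (33.1%) and 2 after the reference shift (26.8%). It was 2 with the replicate block (27.6%), 2 without round 4 (19.9%) and 1 to 2 leaving out each array. With the block within each time it was 4 (30.2%), TM7SF2, LSS, SQLE and HMGCS1. There SQLE stood at 0.48 (limma adjusted p = 0.0117, in place of 0.342) and HMGCS1 at -0.43 (0.0233, in place of 0.325). Of the 39 other pathway genes at 468 nM and 24 h, 5 were higher and 12 lower, where 20.4% and 25.1% of all genes were. The counts were 15 and 2 after the reference shift (38.3% and 9.45%) and 4 and 7 with only the groups compared (15.3% and 20%). With a filter at 7 they were 2 and 7 of 27 tested (26.1% and 29.5%). They were 8 and 15 with the replicate block (22.1% and 26.5%), and 10 and 17 with the block within each time (23.5% and 27.5%). At 468 nM and 4 h, 1 was higher, where 3.96% of all genes were. It was 2 with repeated quantile normalization (5.02% of all genes higher) or a variance trend (4.06%), and 1 to 2 leaving out each array. The block within each time cannot estimate DMSO over time. For the set the block changed no other call. At 24 h arrays of the same round had mean correlations of 0.15 to 0.17, beside -0.04 for arrays of other rounds. Across times the means for the same round were 0.00 to 0.11.

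Values that changed sign follow. With the block within each time they were HMGCS1 (-0.024) and SQLE (-0.036) at 75 nM and 4 h, and SQLE (-0.0345) and DHCR7 (-0.035) at 468 nM and 4 h, where DHCR7 was -0.023 with the shift and -0.0204 with the plain block. With the shift HMGCS1 turned to 0.0353 at 75 nM and 24 h and DHCR7 to 0.29, LBR to 0.12, INSIG2 to 0.19 and PGGT1B to 0.037 at 468 nM and 24 h. Leaving out each array gave, at 75 nM and 4 h, -0.18 to 0.38 for HMGCS1, -0.12 to 0.23 for SQLE, -0.0863 to 0.18 for LSS and -0.19 to 0.054 for DHCR7. At 468 nM and 4 h it gave -0.08 to 0.40 for HMGCS1, -0.11 to 0.19 for SQLE and -0.10 to 0.14 for DHCR7. At 75 nM and 24 h it gave -0.10 to 0.0033 for HMGCS1 and -0.0407 to 0.12 for DHCR7, at 468 nM and 24 h -0.16 to 0.0247 for DHCR7, and between doses at 4 h -0.0398 to 0.22 for LSS.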
